A study of Mus musculus with 36 samples.

Results

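Population C was compared with population D, a pair among 6 cell populations lettered A to E, with a negative one, that were sorted from the olfactory bulb, cortex and brainstem of C57/Bl6 mice. The comparison took 12 of the 36 RNA-seq libraries, 6 of C and 6 of D, with 2 libraries of each population from each of the 3 regions, chosen by the population letter in the library titles. All of them are labelled astrocyte, and no treatment, sex, age or genotype is given for either population. The series belongs to a study of astrocyte subpopulations that were separated by surface antigens, and which antigens mark C and which mark D is not stated in the labels. The question of the comparison is how the RNA of C cells differs from that of D cells in the same regions.

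Astrocytes are glial cells that clear transmitters from synapses, buffer potassium, supply lactate and lipids to neurons, and cover blood vessels with endfeet rich in the water channel Aqp4. A sort of brain cells can also carry microglia, the resident macrophages of the brain, whose surface receptors signal through the adaptor Tyrobp, and oligodendrocytes, precursors, neurons or vessel cells. Lists of genes of these cells and of astrocyte functions were therefore read beside the genes that differed most.

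Levels are FPKM (fragments per kilobase of transcript per unit of mapped fragments) summed per gene. Differences are C minus D on the log2(FPKM + 1) scale, given with the standard error of the limma fit. On this scale the change of a gene with low values appears smaller than it is. A gene was called at a Benjamini-Hochberg adjusted p under 0.05 over all 11984 genes tested. The labels do not tie libraries to animals. The p-values therefore reflect variation among libraries alone, and this variation may be technical.

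The genes called higher in C than in D included Tyrobp, an adaptor of microglial receptors, Pop5, a ribonuclease subunit, Cd52, a leukocyte glycoprotein, H2-Aa, a class II antigen-presenting chain, and Rora, a nuclear receptor. No gene was called lower. Limma called 22 genes higher in C (0.184% of the genes tested) and 0 lower (0%), with 2287 genes higher (19.1%) and 83 lower (0.693%) at an unadjusted p under 0.05. After quantile normalization, which gives all libraries the same distribution, 0 genes were called in either direction (0% each), with a smallest adjusted p of 0.0921, and 1123 genes were higher (9.37%) and 444 lower (3.7%) at an unadjusted p under 0.05. The median difference over all genes was 0.43 as deposited and 0.08 after quantile normalization. The differences below are therefore read against these medians. Counts of list members at an unadjusted p under 0.05 are likewise read against the shares of all genes given here.

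The calls depended on single libraries. Leaving out cortex D replicate 1 gave 1037 calls, with 1021 higher in C (8.52%) and 16 lower (0.134%), leaving out olfactory bulb C replicate 2 gave 41, and leaving out olfactory bulb D replicate 1 gave 27. Leaving out any of the other 9 libraries, which are olfactory bulb C replicate 1, both cortex C, both brainstem C, olfactory bulb D replicate 2, cortex D replicate 2 and both brainstem D libraries, left 0 calls.

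The D libraries were less alike than the C libraries. Between 8709 and 9981 genes reached 1 FPKM in the C libraries, against 3002 to 8695 in the D libraries, with cortex D replicate 2 lowest, where 6885 of the genes tested were listed at 0. Genes that every cell uses were among them, such as the ribosomal protein gene Rps9, so a 0 there says only that a gene was listed at 0. Across genes, log2 levels correlated at r = 0.785 to 0.862 between C libraries, 0.467 to 0.728 between D libraries and 0.465 to 0.833 between C and D libraries. Each D library correlated best with a C library, cortex D replicate 1 with cortex C replicate 2 at 0.833. The library labelled brainstem D replicate 2 carried olfactory bulb genes (Frzb at 44.8 FPKM, against 6.22 in brainstem D replicate 1) and correlated best with olfactory bulb C replicate 2 (0.731). That C library was also the best match of cortex D replicate 2 (0.545) and of both olfactory bulb D libraries, so this match is not particular to olfactory bulb samples. All C libraries belong to one run of library numbers in the titles and all D libraries to another, so this number series and the population cannot be told apart in the 12 libraries.

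The gene with the largest called difference was Tyrobp (chr7:30413760-30417585 in GRCm38), which encodes the ITAM-bearing adaptor of Trem2 and other microglial receptors. In C it had 38.6 and 12.7 FPKM in the olfactory bulb, 78.2 and 43.3 FPKM in the cortex, and 42.6 and 85.8 FPKM in the brainstem. In D it was listed at 0 and 1.22 FPKM in the olfactory bulb, 20.1 and 0 FPKM in the cortex, and 9.88 and 0 FPKM in the brainstem. Every C library was above every D library except that olfactory bulb C replicate 2 lay below cortex D replicate 1. The difference was 3.96 ± 0.69 (adjusted p = 0.0463), and 3.74 after quantile normalization (adjusted p = 0.0921).

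Tyrobp was the one member called among 18 microglia and macrophage markers, and all 18 had a difference above 0, beside 79.5% of all genes tested. After quantile normalization 17 did, beside 55.4% of all genes. At an unadjusted p under 0.05, 16 were higher in C and 0 lower as deposited, and 13 higher and 0 lower after quantile normalization, with median differences of 1.81 and 1.43. Trem2, the lipid-sensing receptor that signals through Tyrobp, ranged from 0.807 to 11.8 FPKM in C with a median of 6.94, against 0 to 0.872 FPKM in D with a median of 0.115 (difference 2.31 ± 0.47, adjusted p = 0.0553). Aif1, the microglial actin-binding protein IBA1, ranged from 2.06 to 16.4 FPKM in C and from 0 to 2.72 FPKM in D (2.18 ± 0.46, adjusted p = 0.0633). Both genes were listed at 0 in 3 D libraries each, and in no C library. Csf1r, the receptor on which microglial survival depends, had a median of 36.1 FPKM in C and 4.53 FPKM in D, with C from 9.35 to 76.0 FPKM and D from 1.55 to 25.2 FPKM. Among the other members, Cx3cr1, the fractalkine receptor, showed 1.5 ± 0.497, Tmem119 1.56 ± 0.56 and P2ry12, a purinergic receptor of resting microglia, 1.29 ± 0.51, with adjusted p of 0.138, 0.158 and 0.185. Cd68, a lysosomal glycoprotein of macrophages, showed 0.76, and Mrc1, the mannose receptor of border macrophages, 0.11.

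The summed level of the 18 markers was 156 to 855 FPKM in C and 46.0 to 304 FPKM in D, so the groups overlapped. In bulk libraries more cells of a type and more RNA per cell cannot be told apart. The median of the list was 1.10 after quantile normalization without the D libraries brainstem replicate 2 and cortex replicate 2, with 10 of 18 higher at an unadjusted p under 0.05.

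Myeloid genes are known to be driven by the ETS factor PU.1, which binds purine-rich sites around GGAA. A search for the PU.1-type word GAGGAAGT on both strands of RefSeq promoters (GRCm38.p6, 250 bases before to 50 after the gene start) found it in 1052 of 32851 promoters (3.2%). Of the called genes, 19 had a promoter in that table and 1 held the word, Cd37. The promoters searched did not cover every gene, and none of them was that of Tyrobp. Of the microglial markers, 13 had a promoter among those searched and 2 held the word, Ctss and C1qc. These 3 promoters are shown because they are the ones that held the word among the called genes and the microglial markers. Each reads 5′ to 3′ on the strand of its gene, and capitals mark the word or its reverse complement ACTTCCTC. A match describes letters and is no evidence of binding.
Ctss, chr3:95526536-95526835, plus strand: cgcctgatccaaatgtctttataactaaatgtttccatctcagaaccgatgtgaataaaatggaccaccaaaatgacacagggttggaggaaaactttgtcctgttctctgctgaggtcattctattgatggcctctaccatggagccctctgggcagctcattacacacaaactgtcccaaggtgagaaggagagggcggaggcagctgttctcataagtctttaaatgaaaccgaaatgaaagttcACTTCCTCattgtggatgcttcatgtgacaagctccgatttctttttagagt
C1qc, chr4:136892865-136893164, minus strand: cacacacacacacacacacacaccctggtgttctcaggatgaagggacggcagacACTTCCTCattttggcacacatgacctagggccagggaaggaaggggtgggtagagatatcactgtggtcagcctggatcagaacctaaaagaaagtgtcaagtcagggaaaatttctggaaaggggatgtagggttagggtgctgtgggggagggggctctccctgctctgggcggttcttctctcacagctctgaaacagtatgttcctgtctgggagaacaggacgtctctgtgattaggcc
Cd37, chr7:45238790-45239089, minus strand: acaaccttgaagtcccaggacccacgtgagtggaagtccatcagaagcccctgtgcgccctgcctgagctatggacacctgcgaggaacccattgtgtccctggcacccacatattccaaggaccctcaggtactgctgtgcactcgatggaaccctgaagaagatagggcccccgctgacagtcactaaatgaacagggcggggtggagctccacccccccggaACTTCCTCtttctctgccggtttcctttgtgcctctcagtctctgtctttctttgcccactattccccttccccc

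Ctss, a lysosomal protease of antigen processing, had 25.3 to 141 FPKM in C with a median of 61.0 FPKM, against 2.54 to 30.2 FPKM in D with a median of 16.0 FPKM (2.06 ± 0.51, adjusted p = 0.0828). C1qc, a chain of the complement starter C1q, had 14.8 to 119 FPKM in C and 2.09 to 47.6 FPKM in D (2.12 ± 0.49, adjusted p = 0.0712). Neither was called, and for both the groups overlapped. Cd37 (chr7:45233632-45239115), a tetraspanin of leukocytes, was called. It had 0.851 to 15.4 FPKM in C and was listed at 0 in 5 of 6 D libraries, with 0.303 FPKM in olfactory bulb D replicate 1, so every C library was above every D library (2.36 ± 0.44, adjusted p = 0.0463).

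Further immune genes were among the calls. H2-Aa (chr17:34282744-34287823), the alpha chain of the class II antigen-presenting molecule I-A, had 3.55 to 15.1 FPKM in C with a median of 7.16 FPKM, against 0 to 3.65 FPKM in D with a median of 0.116 FPKM (2.53 ± 0.47, adjusted p = 0.0463). Cd52 (chr4:134082448-134095082), a small lipid-anchored glycoprotein of lymphocytes and macrophages, was listed at 0 in all 6 D libraries and in olfactory bulb C replicate 2, and had 3.58 to 15.2 FPKM in the other 5 C libraries (2.496 ± 0.47, adjusted p = 0.0463). Ifi30, a thiol reductase that unfolds antigens in lysosomes, had 1.24 to 13.7 FPKM in C and 0 to 0.48 FPKM in D (2.25 ± 0.42, adjusted p = 0.0463). Cd74, the invariant chain of class II molecules, was not called, with every C library (6.97 to 28.8 FPKM) above every D library (0 to 6.65 FPKM) at a difference of 2.37 ± 0.55 and an adjusted p of 0.0717. H2-Ab1, the beta chain of I-A, had 1.68 to 13.2 FPKM in C and 0 to 3.12 FPKM in D. The 15 antigen presentation and interferon genes as a whole had a median of 0.46, beside 0.43 over all genes, with 4 higher and 0 lower at an unadjusted p under 0.05. Ifit1, an interferon-induced RNA-binding protein, had 0.0559 to 2.07 FPKM in C and 0 to 3.33 FPKM in D (-0.47 ± 0.35).

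**Figure D1:**
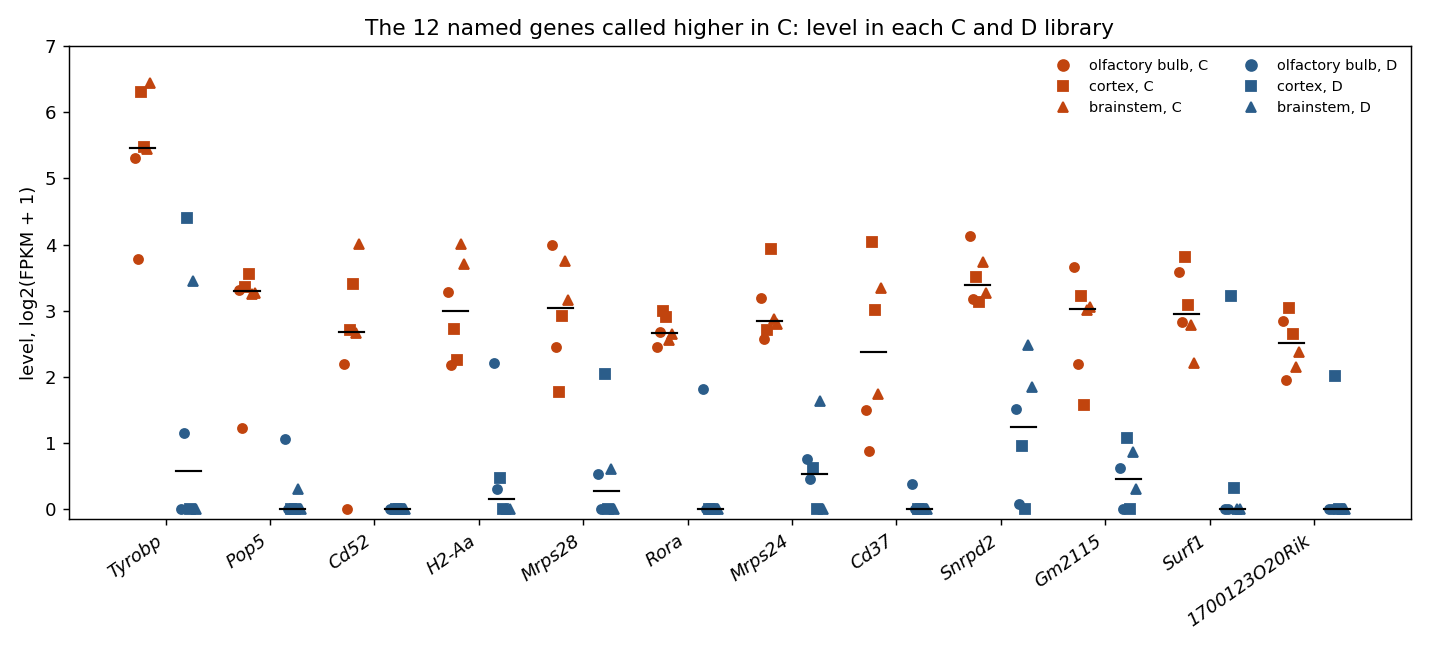
Level, log2(FPKM + 1), of 12 called protein-coding genes, those with the largest differences after quantile normalization, in each library of C (left of each pair, orange) and D (right, blue), with symbols for the region and a bar at the median of each group. Tyrobp reaches the highest levels in C, 12.7 to 85.8 FPKM, and 4 of the genes are listed at 0 in 5 or more D libraries.

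The other calls are ordered here by the known roles of their products, an order chosen after their values were seen and not tested for enrichment. Some encode mitochondrial proteins. Mrps28 (chr3:8802146-8923918), of the small subunit of the mitochondrial ribosome, had 2.42 to 14.9 FPKM in C and 0 to 3.14 FPKM in D (2.48 ± 0.49, adjusted p = 0.0474). Mrps24 (chr11:5703983-5715680), of the same subunit, had 4.94 to 14.3 FPKM in C and 0 to 2.10 FPKM in D (2.43 ± 0.41, adjusted p = 0.0463). Surf1 (chr2:26913381-26916530), an assembly factor of cytochrome c oxidase, had 3.63 to 13.1 FPKM in C, against 8.36 FPKM in cortex D replicate 1 and 0 to 0.257 FPKM in the other D libraries. Ptpmt1, a phosphatase of cardiolipin synthesis, had 6.22 to 13.8 FPKM in C and 0 to 3.52 FPKM in D, and Cox7b2, a cytochrome c oxidase subunit known for its expression in testis, had 0.702 to 7.49 FPKM in C and 0 to 0.192 FPKM in D.

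RNA-processing proteins were encoded by Pop5, Snrpd2 and Rnaseh2c. Pop5 (chr5:115235836-115245351), a subunit of ribonucleases P and MRP, had 1.34 to 10.8 FPKM in C and 0 to 1.09 FPKM in D, with all of C above all of D (2.77 ± 0.44, adjusted p = 0.0417). Snrpd2 (chr7:19149722-19153542), an Sm core protein of the spliceosome, had 7.73 to 16.5 FPKM in C and 0 to 4.56 FPKM in D (2.34 ± 0.44, adjusted p = 0.0463). Rnaseh2c, a subunit of the ribonuclease that cuts RNA in DNA hybrids, had 4.02 to 16.9 FPKM in C and 0 to 3.43 FPKM in D.

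Transcription factors among the calls were Rora, Dbx2 and Zfp3. Rora (chr9:68653786-69388246), a nuclear receptor, had 4.49 to 6.94 FPKM in C, the narrowest range in C of the 12 genes plotted, and was listed at 0 in every D library but olfactory bulb D replicate 1, at 2.52 FPKM (2.41 ± 0.39, adjusted p = 0.0417). Dbx2, a homeobox factor of the neural tube, had 3.65 to 19.3 FPKM in C and 0.0723 to 2.95 FPKM in D, and was the one called gene above 0 in all 12 libraries. Zfp3, a zinc finger protein, had 1.02 to 3.28 FPKM in C and 0 to 0.39 FPKM in D. The remaining calls were Gm2115 (chr7:84528954-84583531), 1700123O20Rik (chr14:54686216-54690741), 2810006K23Rik, Nat8f5 of an N-acetyltransferase family, Babam1 of the BRCA1-A complex of DNA repair, and Rab35, a GTPase of endosomal recycling, with differences from 1.95 to 2.31. All 22 genes were above 0 in each of the 3 regions, both as deposited and after quantile normalization. They were selected on the mean of these same regions, so this is no independent support. Over the regions together, 79.5% of all genes tested were above 0, and 55.4% after quantile normalization.

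The library kit keeps no strand information, and fragments from overlapping genes cannot be told apart. Among the calls, 9 of the 22 genes overlap another protein-coding gene: Pop5 (Rnf10), Cd52 (Crybg2), Mrps24 (Urgcp), Cd37 (Tead2), Surf1 (Surf2), 1700123O20Rik (Acin1), Nat8f5 (Nat8f6), Ptpmt1 (Kbtbd4) and Rnaseh2c (Kat5). Of the 202 genes (1.69%) with every C library above every D library, 16 were among the 22 calls. Both counts come from the same 12 libraries, so the lack of overlap is no independent support for the calls.

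Astrocyte genes were higher in C without a call. None of 26 astrocyte markers was called, all 26 had a difference above 0 as deposited and after quantile normalization, and 21 were higher and 0 lower at an unadjusted p under 0.05 (17 and 0 after quantile normalization). Their median difference was 1.69, and 1.10 after quantile normalization. Aldh1l1, the folate enzyme used as a marker of astrocytes, had 15.4, 8.15, 18.7, 19.8, 14.5 and 18.6 FPKM in the C libraries, in the order of olfactory bulb, cortex and brainstem. In the same order it had 4.58, 1.74, 18.9, 0, 10.1 and 0.905 FPKM in the D libraries. The difference was 1.92 ± 0.62 (adjusted p = 0.13), with cortex D replicate 1 at the level of C. Aqp4, the endfoot water channel, had 59.9 to 90.4 FPKM in C with a median of 77.1 FPKM, against 6.65 to 47.6 FPKM in D with a median of 21.1 FPKM, so all of C was above all of D (1.74 ± 0.45, adjusted p = 0.0914). Cldn10, a claudin found in astrocytes, had 38.3 to 69.4 FPKM in C and 0.281 to 80.3 FPKM in D (2.79 ± 0.77, adjusted p = 0.106). Slc1a2, the main glutamate transporter of the forebrain, had 431 to 1626 FPKM in C and 71.0 to 1929 FPKM in D, where cortex D replicate 1 held the highest value of all 12 libraries (1.82 ± 0.48, adjusted p = 0.095).

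Set against the astrocyte label of the libraries, the markers had a list mean of 5.60 to 6.47 on the log2(FPKM + 1) scale in C and 3.19 to 6.39 in D. Cortex D replicate 1 gave the D maximum and cortex D replicate 2 the minimum. The list's median difference was 1.25 without cortex D replicate 2, 1.96 without cortex D replicate 1 and 1.06 without cortex D replicate 2 and brainstem D replicate 2. Without cortex D replicate 1, 20 of the 26 astrocyte markers and 13 of the 18 microglial markers were called higher, beside 8.52% of all genes. The only cortex D library then left is replicate 2, where 6885 of the genes tested were listed at 0. With cortex D replicate 2 left out instead, 0 members of either list were called, beside 0% of all genes.

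**Figure D2:**
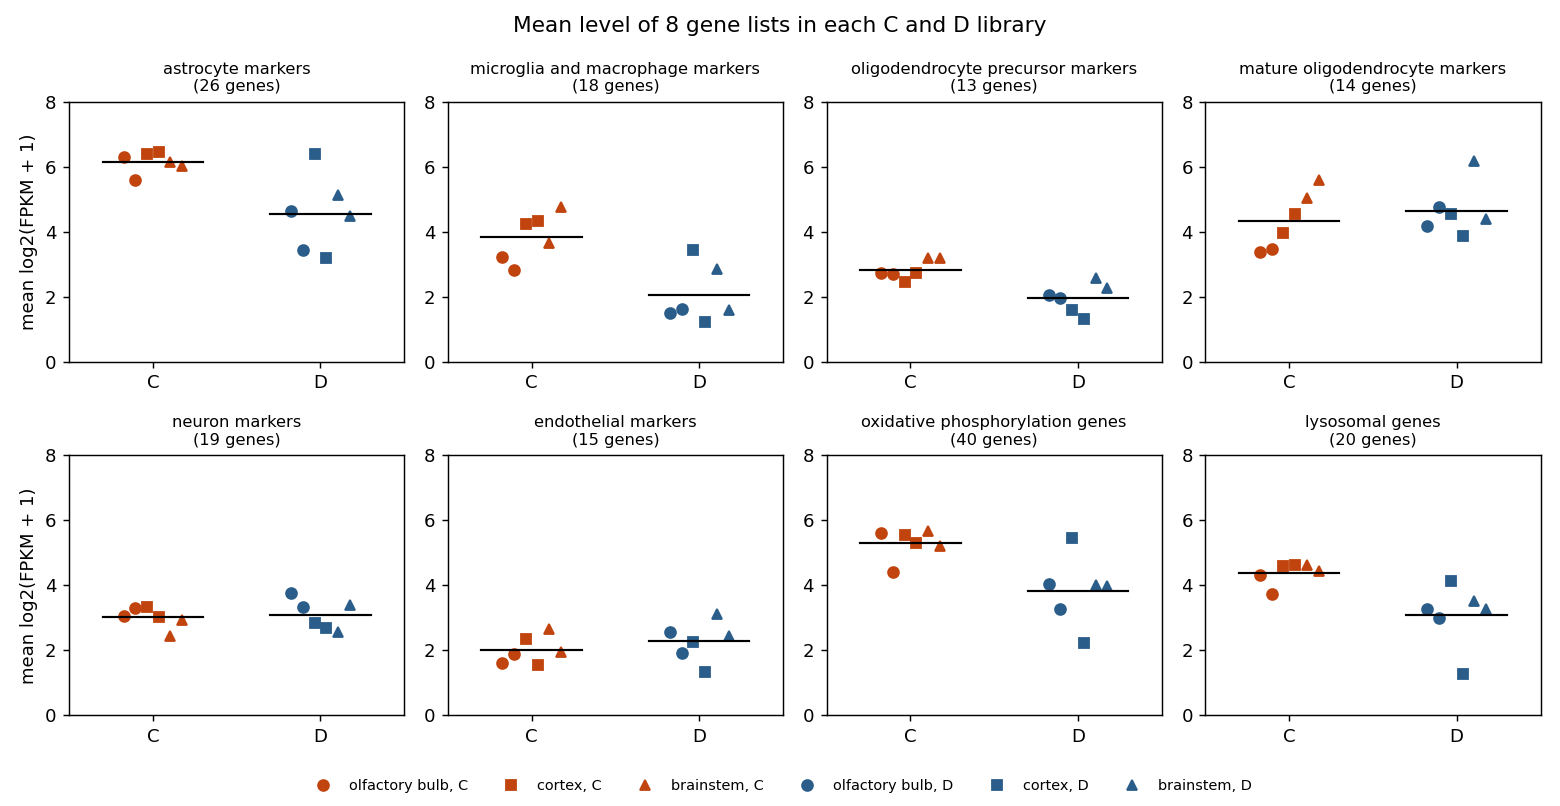
Mean level, log2(FPKM + 1), of 8 gene lists in each C library (left) and D library (right), with symbols for the region and a bar at the mean of each population. Astrocyte markers lie between 5.60 and 6.47 in C, and between 3.19 and 6.39 in D, where the cortex libraries hold both extremes.

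Genes of astrocyte functions had 0 calls in each of the lists described next. Among 12 uptake genes 9 were higher in C and 0 lower at an unadjusted p under 0.05 (median 1.59). After quantile normalization 8 were higher and 1 lower (median 1.04). Glud1, which turns glutamate into a citric acid cycle intermediate, had 123 to 246 FPKM in C and 21.2 to 199.7 FPKM in D (1.81 ± 0.49), and Slc6a9, the glial glycine transporter GLYT1, had 10.96 to 78.2 FPKM in C and 0 to 25.1 FPKM in D (1.92 ± 0.54). Of 14 endfoot, potassium and gap junction genes, 9 were higher and 0 lower (median 1.30), and 4 and 0 after quantile normalization (median 0.68). Kcnj10, the inward rectifier of potassium buffering, had 123 to 368 FPKM in C and 34.8 to 137 FPKM in D (1.42 ± 0.46), and Mlc1, a membrane protein of perivascular endfeet, had 37.9 to 88.6 FPKM in C and 0 to 70.0 FPKM in D (2.71 ± 0.77).

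Of 11 lipid transport genes, 7 were higher and 0 lower at an unadjusted p under 0.05 (median 1.32). Lcat, which esterifies cholesterol on lipoprotein particles, had 72.4 to 154 FPKM in C with a median of 101 FPKM, against 4.66 to 39.5 FPKM in D with a median of 26.7 FPKM, so the groups did not overlap (2.30 ± 0.51, adjusted p = 0.0635). Its difference was 0.19 with the number series term described below. Clu, the chaperone apolipoprotein J, had 120 to 872 FPKM in C and 7.67 to 718 FPKM in D (2.47 ± 0.59). The 18 cholesterol synthesis genes had a median of 0.82, with 4 higher and 0 lower, beside 19.1% of all genes higher and 0.693% lower. After quantile normalization the median was 0.55, with 2 higher and 0 lower, beside 9.37% and 3.7% of all genes. Both counts of higher genes are near the shares of all genes. Fdft1, squalene synthase, had 6.08 to 14.2 FPKM in C and was listed at 0 in 3 D libraries, with up to 7.02 FPKM in the rest (2.38 ± 0.52, adjusted p = 0.0635).

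Regulators of the glial fate were partly higher. The 13 gliogenic transcription factors had a median of 0.95, with 5 higher and 0 lower at an unadjusted p under 0.05. After quantile normalization 4 were higher and 1 lower. Hopx, an atypical homeodomain protein of radial glia and astrocytes, had 9.34 to 41.3 FPKM in C and 0 to 13.6 FPKM in D (2.93 ± 0.65, adjusted p = 0.0635). Sox9, a factor needed for astrocyte specification, had 17.96 to 39.5 FPKM in C and 1.64 to 57.2 FPKM in D (2.06 ± 0.61). The 11 Notch and BMP target genes had a median of 0.91, with 5 higher and 0 lower (4 and 1 after quantile normalization). Among them, Hey1 had 9.84 to 27.0 FPKM in C and 0 to 12 FPKM in D (2.43 ± 0.60). Its relative Hey2 had 0.945 to 10.9 FPKM in C and 0 to 21.7 FPKM in D (-0.62 ± 0.50). Synapse formation genes had a median of 0.55, with 6 higher and 1 lower of 21 (4 and 2 after quantile normalization). Sparcl1 (hevin), which promotes excitatory synapses, had 687 to 1301 FPKM in C and 191 to 1093 FPKM in D (1.57 ± 0.44). Thbs2, a thrombospondin that also promotes synapses, had 0.197 to 4.63 FPKM in C and 0.558 to 5.39 FPKM in D (-0.88 ± 0.39, adjusted p = 0.225). Gfap, the intermediate filament of reactive astrocytes, showed 1.41 ± 0.52. The 15 reactivity genes together had a median of 0.32, below that of all genes, with 1 higher and 0 lower (1 and 1 after quantile normalization).

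Energy metabolism genes were higher in C with 0 calls. Of 40 nuclear oxidative phosphorylation genes, 27 were higher and 0 lower at an unadjusted p under 0.05 (20 and 0 after quantile normalization), with medians of 1.43 and 0.95. Ndufb7, a complex I subunit, had 9.06 to 65.1 FPKM in C with a median of 31.6 FPKM, against 0 to 39.4 FPKM in D with a median of 2.83 FPKM (2.79 ± 0.65, adjusted p = 0.0781). Uqcrc2, a complex III core protein, had 14.8 to 33.4 FPKM in C and 2.21 to 13.0 FPKM in D, with all of C above all of D (1.57 ± 0.44). Of 19 glycolysis and lactate genes, 13 were higher and 0 lower (median 1.26). Ldhb, a lactate dehydrogenase subunit, had 64.5 to 157 FPKM in C and 0.119 to 95.96 FPKM in D (2.49 ± 0.78). Of 20 lysosomal genes, 14 were higher and 0 lower (median 1.205). Hexa, the alpha subunit of beta-hexosaminidase, had 2.85 to 14.5 FPKM in C and 0 to 3.57 FPKM in D (1.85 ± 0.45), and Ctsd, cathepsin D, had 58.1 to 243 FPKM in C and 0.991 to 111 FPKM in D (2.35 ± 0.73).

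Transcript length moved with the difference. The median difference over all genes was 0.77 for transcripts under 1000 bases, 0.55 for 1000 to 2000 bases, 0.41 for 2000 to 4000 bases and 0.30 above 4000 bases, and after quantile normalization it was 0.48, 0.26, 0.07 and -0.11. Of the 22 called genes, 9 were among the 1079 genes of the shortest class, 10 among the 2908 of the next, 2 among the 4822 of the third class and 1 among the 3175 of the longest. Against the median of genes of the same length class, the list medians were 1.33 for astrocyte markers, 1.34 for microglial markers, 0.71 for oxidative phosphorylation and -0.04 for the 37 cytosolic ribosomal protein genes, whose unadjusted median was 0.66. The part of length in these differences was not tested further.

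**Figure D3:**
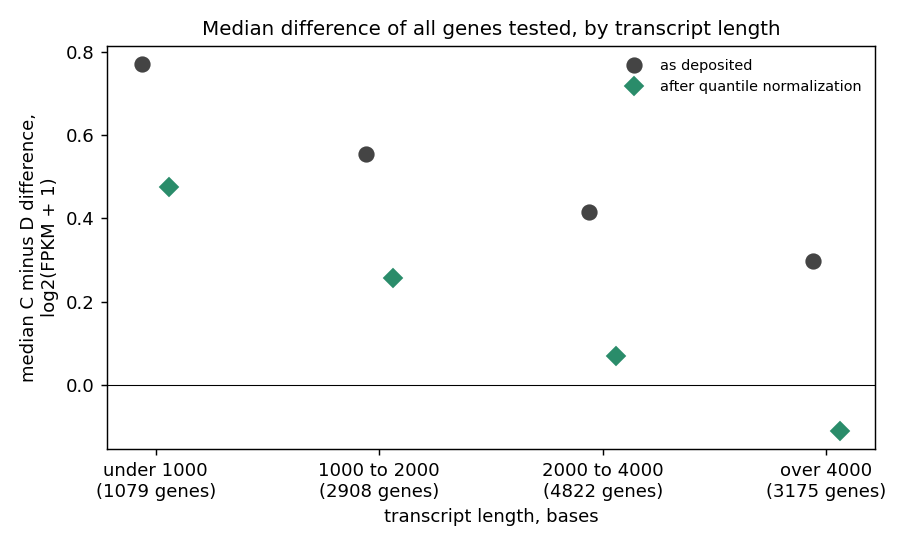
Median C minus D difference, log2(FPKM + 1), over all 11984 genes tested in 4 classes of transcript length in bases, as deposited (circles) and after quantile normalization (diamonds). The median falls with length, to 0.30 as deposited and -0.11 after quantile normalization above 4000 bases.

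The lists of mature oligodendrocyte, neuron and endothelial markers had medians below 0, with 0 calls in each. Members above 0 numbered 2 of 14, 8 of 19 and 5 of 15 in that order. The 14 mature oligodendrocyte markers had a median of -0.27, and -0.80 after quantile normalization, with 0 higher and 2 lower at an unadjusted p under 0.05 (0 and 4 after quantile normalization). Mal, a myelin proteolipid, had 3.66 to 39.7 FPKM in C and 16.6 to 75.95 FPKM in D (-1.17 ± 0.52). Mbp, myelin basic protein, was among the highest genes in both, with 471 to 7102 FPKM in C and 842 to 8646 FPKM in D (-0.05 ± 0.53). The summed level of the list was 842 to 8828 FPKM in C and 1638 to 11210 FPKM in D. With the number series term described below, the median difference of this list was 0.37.

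Oligodendrocyte precursor markers lay on the other side, with a median of 0.85 over 13 genes and 5 higher and 0 lower at an unadjusted p under 0.05 (0.37, with 3 and 0, after quantile normalization). Pdgfra, the growth factor receptor of these precursors and also of fibroblasts, had 2.69 to 9.17 FPKM in C and 0 to 2.24 FPKM in D, without overlap (1.66 ± 0.38, adjusted p = 0.0684). Olig1, a bHLH factor of the lineage, had 31.6 to 63.4 FPKM in C and 3.13 to 38.7 FPKM in D (1.94 ± 0.54). Their summed level, 213 to 333 FPKM in C and 68.8 to 184 FPKM in D, did not overlap, but a sum weighs the highest members most. Ptprz1 alone held 155 of 230 FPKM in cortex C replicate 1 and 43.1 of 130 FPKM in brainstem D replicate 1. Of the 13 genes, 12 had a difference above 0, and 11 after quantile normalization, beside 79.5% and 55.4% of all genes. Sox10 showed 0.38, and -0.004 after quantile normalization, and Enpp6 showed -0.34.

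The 19 neuron markers had a median of -0.24, and -0.66 after quantile normalization, with 0 lower at an unadjusted p under 0.05 as deposited and 4 lower after quantile normalization. Syt1, the calcium sensor of synaptic vesicles, had 0.914 to 12.02 FPKM in C and 1.95 to 19.9 FPKM in D (-0.77 ± 0.50). The 15 endothelial markers had medians of -0.26 and -0.72, with 1 and 5 lower. Abcb1a, the P-glycoprotein pump of the blood-brain barrier, had 0.555 to 2.85 FPKM in C and 0.868 to 9.87 FPKM in D (-1.10 ± 0.43). Fibroblast markers had a median of 1.28 over 7 genes, with Dcn (decorin, a matrix proteoglycan) at 2.38 to 17.6 FPKM in C and 0 to 4.33 FPKM in D. Choroid plexus markers had a median of 1.40 over 8 genes, and 1.03 after quantile normalization. As deposited, it was 0.12 in the olfactory bulb, 1.85 in the cortex and 2.44 in the brainstem. Without cortex D replicate 2 and brainstem D replicate 2, the median over the regions was 0.35. Ttr, the thyroid hormone carrier made by the choroid plexus epithelium, ranged from 29.8 to 23600 FPKM in C and from 0.792 to 3559 FPKM in D (4.02 ± 1.5, adjusted p = 0.169), so the groups overlapped. The remaining cell type lists had medians of 1.08 for 7 ependymal genes, 0.87 for 7 blood cell genes, 0.49 for 8 pericyte and smooth muscle genes, 0.12 for 9 olfactory ensheathing genes, -0.27 for 11 neuroblast genes and -0.31 for 6 olfactory sensory neuron genes. Of the ensheathing genes, 3 were lower in C at an unadjusted p under 0.05. Without brainstem D replicate 2, 1 was, and the medians were 0.47 for ensheathing genes, -0.07 for neuroblast genes and 0.15 for olfactory sensory neuron genes. The part that other cell types have in the differences between C and D was not tested.

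**Figure D4:**
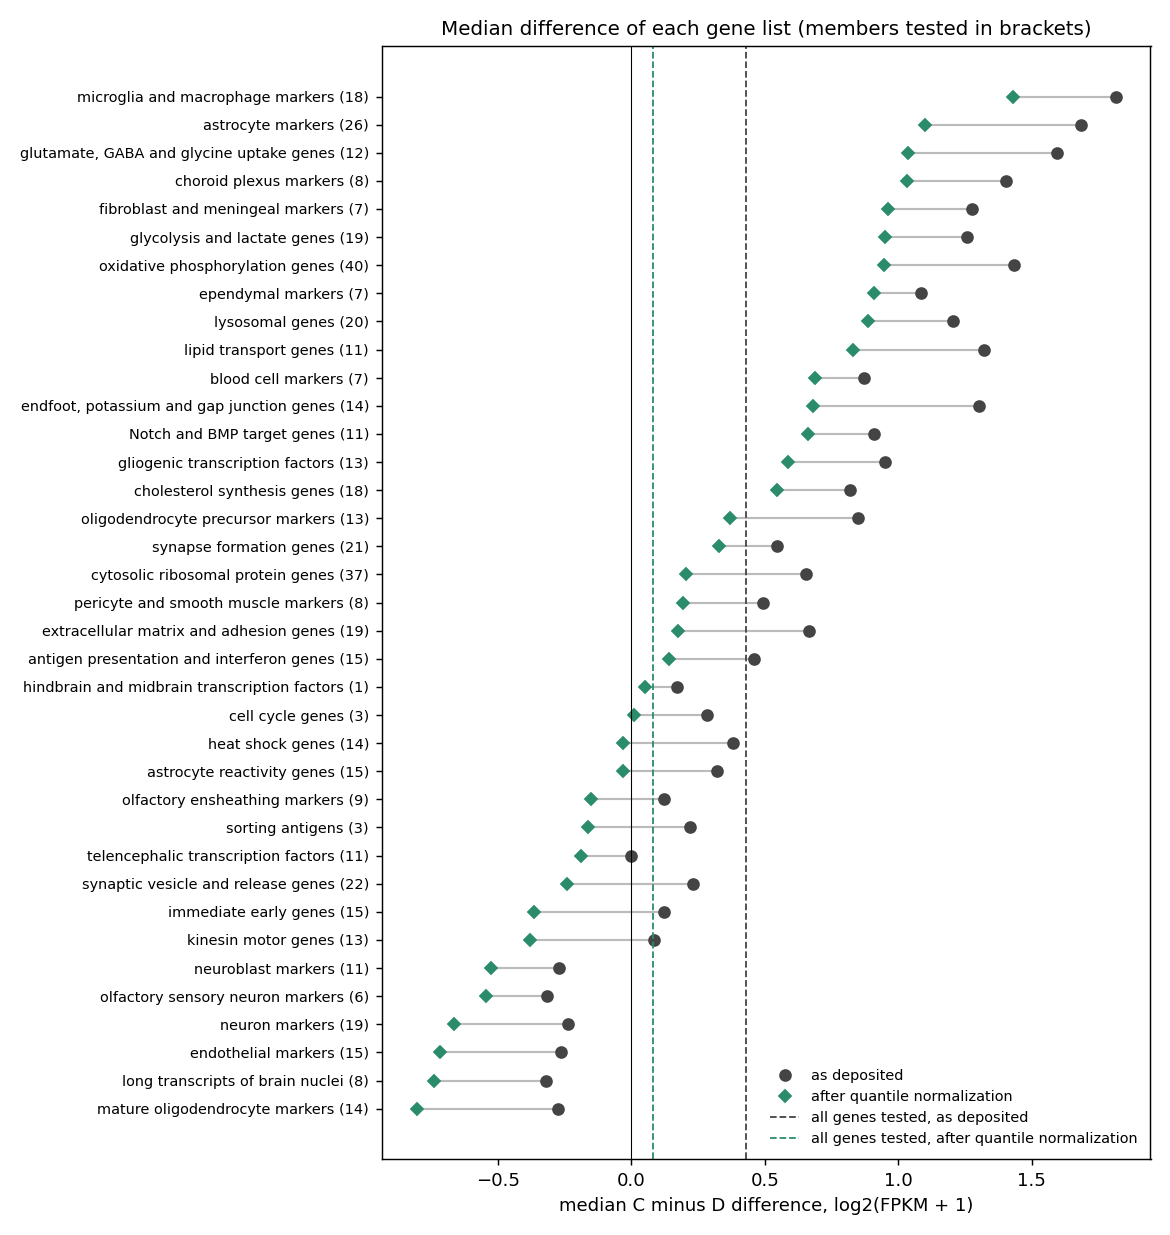
Median C minus D difference, log2(FPKM + 1), of each of 37 gene lists as deposited (circles) and after quantile normalization (diamonds), with the number of members tested in brackets and dashed lines at the medians of all genes tested, 0.43 and 0.08. Microglial and astrocyte markers are at the top (1.81 and 1.69 as deposited) and mature oligodendrocyte markers at the bottom (-0.80 after quantile normalization).

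In the direction lower in C, 3 genes (0.025%) had every C library below every D library, and they are named here after their values were seen. Phlda1, a protein with a pleckstrin homology-like domain, had 2.89 to 15.1 FPKM in C with a median of 9.48 FPKM, against 16.7 to 48.7 FPKM in D with a median of 24.2 FPKM (-1.47 ± 0.44, adjusted p = 0.119). Palm2, a paralemmin, had 0.745 to 1.99 FPKM in C and 2.33 to 7.42 FPKM in D (-1.03 ± 0.36), and Cacna1a, the pore of P/Q-type calcium channels, had 1.07 to 2.36 FPKM in C and 2.39 to 9.04 FPKM in D (-0.97 ± 0.39). Knop1, a nucleolar protein, was listed at 0 in all 6 C libraries and in brainstem D replicate 2, and had 0.557 to 5.46 FPKM in the other 5 D libraries (-1.47 ± 0.40, adjusted p = 0.0979). It was called lower in C when cortex D replicate 2 and brainstem D replicate 2 were left out (adjusted p = 0.043).

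The 3 antigens known from sorting of astrocyte subpopulations had overlapping RNA levels in C and D. The surface protein that sorting uses was not measured in these libraries. Itgav, the integrin chain CD51, had 8.31 to 17.3 FPKM in C and 7.11 to 17.6 FPKM in D (0.19 ± 0.37, adjusted p = 0.802). Cd63, a tetraspanin of late endosomes, had 6.02 to 21.6 FPKM in C and 0 to 23.3 FPKM in D (0.93 ± 0.62, adjusted p = 0.407). Tfrc, the transferrin receptor CD71, had 4.09 to 9.19 FPKM in C and 0.401 to 9.84 FPKM in D (0.22 ± 0.48, adjusted p = 0.824). After quantile normalization the differences were -0.16 for Itgav, 0.74 for Cd63 and -0.32 for Tfrc. A p above the threshold does not show that the levels are alike.

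No gene was called for a difference that depended on region (0%), and 403 of 11984 genes had an unadjusted p under 0.05 in the limma F test. The median over all genes was 0.25 in the olfactory bulb, 0.76 in the cortex and 0.30 in the brainstem. Astrocyte markers had medians of 1.79, 1.56 and 1.34 in the same order, and microglial markers 1.44, 1.97 and 2.08. Within regions, with 2 libraries against 2, limma called 0 genes in the olfactory bulb (0%, with 387 higher and 90 lower at an unadjusted p under 0.05), 1 higher in the cortex (0.00834%, with 1392 higher and 39 lower at an unadjusted p under 0.05) and 0 in the brainstem (0%, with 799 higher and 162 lower).

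Groups of the series that hold a library of each number series give the one view of that series outside C and D. In cortex A, brainstem A and brainstem B, the library of the second series, to which the D libraries belong, minus that of the first had median differences over all genes of -0.73, -0.30 and -0.61, and of -0.13, -0.03 and -0.16 after quantile normalization. For the 22 called genes these were -1.45, 0.02 and -1.54, with 18, 11 and 17 genes lower in the second series. For astrocyte markers they were -1.40, -0.69 and -0.49, for microglial markers -1.35, -0.49 and 0.10 (-0.75, -0.38 and -0.51 after quantile normalization), and for oxidative phosphorylation genes -1.56, -0.55 and -1.66. For mature oligodendrocyte markers they were -0.33, 0.69 and 1.805, so higher in the second series in both brainstem groups. Among genes whose C and D levels did not overlap, Lcat had -3.06, -0.28 and -2.99, Cd74 -3.77, -0.13 and -2.96, and Rora -0.96, 1.9 and -0.23. These are single libraries of each kind, so no test was made. The library of the second series also had fewer genes at 1 FPKM or more. In cortex A these were 4282 against 8000, in brainstem A 6759 against 8580, and in brainstem B 5904 against 9892. The part of this gap in the differences was not tested.

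When C and D were set against each other in a fit of all 36 libraries, 354 genes were called higher in C (2.95%) and 6 lower (0.0501%). Adding the number series to that fit left 0 calls, with 629 at an unadjusted p under 0.05. That term is estimated only from the single libraries of each series in cortex A, brainstem A and brainstem B. Applying it to C and D assumes that they share the same series difference, which was not tested. The median difference with that term was -0.10 over all genes, 1.16 for microglial markers, 0.68 for astrocyte markers and 0.05 for oxidative phosphorylation genes. Some lists took the other sign than in the fit of the 12 libraries. Their medians were -0.30 for lipid transport, -0.56 for Notch and BMP target, -0.38 for antigen presentation and interferon, and -0.72 for blood cell genes. For mature oligodendrocyte markers the median turned to 0.37. Tyrobp had a difference of 4.04 there (adjusted p = 0.651), and Rnaseh2c turned to -0.79 without a call (adjusted p = 0.954). Rora had 2.64 with that term, Lcat 0.19 and Cd74 0.08.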

How the data were processed

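The authors deposited FPKM per transcript, with intervals, and a coverage value (mean fragment depth), per the file headers (Cufflinks tracking columns). The submitters' processing notes name bcl2fastq 1.8.3, TopHat, Cufflinks and mm10; other versions and the annotation are not stated there. Total RNA was primed with random and poly d(T) primers, per the labels' protocols.

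Of 63241 transcripts, 52587 were assigned by locus to GENCODE genes (GRCm38) and summed. Mitochondrial transcripts were left out. Genes with at least 1 FPKM in 2 of the 12 libraries (11984) were tested on log2(FPKM + 1) with limma 3.58.1 (R 4.3.3), with region as a block, a mean trend and Benjamini-Hochberg adjustment, and the script was tested on simulated data. The depth, from the coverage value per FPKM, was 1.93 to 2.36 in C and 1.56 to 2.37 in D in relative units. Named were the 12 called protein-coding genes with the largest differences after quantile normalization (all higher in C) and the 3 genes of smallest p per list. Other genes named were chosen after their values were seen, and some single genes are not reported here. The comparison and all gene lists were chosen with earlier results of these data known. Alternatives changed normalization, pseudocount, filter, transcript choice, region term, weights, libraries and number series.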

Additional observations from a re-analysis of the deposited data

Results flagged for a closer look

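Within the 6 libraries of C or of D, 21 of 124 sets of values had 1 library farther from the others than Dixon's 95% limit for 6 values. The limit is passed in about 1 in 20 sets only where the values are normally distributed. Where 5 of 6 libraries are listed at 0, as for Cd37 and Rora in D, any other value passes it. The number of flagged sets is therefore not read as an excess.

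In C, olfactory bulb replicate 2 was low for Pop5 (1.34 FPKM), Zfp3 (1.02 FPKM) and Aldh1l1 (8.15 FPKM). It was also low in the mean log2(FPKM + 1) of oxidative phosphorylation genes (4.41), cytosolic ribosomal protein genes (2.47) and lysosomal genes (3.72). Olfactory bulb C replicate 1 stood apart for lipid transport genes (6.02) and brainstem C replicate 1 for heat shock genes (4.12).

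In D, cortex replicate 1 was high for 1700123O20Rik (3.03 FPKM), Mrps28 (3.14 FPKM) and Surf1 (8.36 FPKM). Olfactory bulb D replicate 1 was high for Cd37 (0.303 FPKM), H2-Aa (3.65 FPKM), Nat8f5 (0.249 FPKM), Pop5 (1.09 FPKM) and Rora (2.52 FPKM), and brainstem D replicate 1 for Cox7b2 (0.192 FPKM). Cortex D replicate 2 was low for Tfrc (0.401 FPKM) and in the mean log2(FPKM + 1) of Notch and BMP target genes (0.57), heat shock genes (2.03) and astrocyte reactivity genes (0.695).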

How the results depend on the processing

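The 22 calls, 2 of them list genes, were compared over 26 alternatives. Both counts were 0 after quantile normalization (also without brainstem D replicate 2 or cortex D replicate 2), after rescaling to equal sums, with a pseudocount of 0.1, with no filter on low values and with a number series term in all 36 libraries. With array weights 11 genes were called, and with the highest transcript per gene 1 list gene. The fit of all 36 libraries called 360 genes and 45 list genes. Leaving out 1 library at a time gave 0 to 1037 genes and 0 to 124 list genes, the highest without cortex D replicate 1. After quantile normalization without that library the counts were 262 and 43. Without brainstem D replicate 2 and cortex D replicate 2 they were 2 and 0, and 1 and 0 after quantile normalization. The settings without both libraries, and quantile normalization without either cortex D library, were chosen after seeing the data.

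The median over all genes was -0.10 with the number series term and 0.24 to 0.54 when 1 library was left out. Rnaseh2c turned to -0.79 with that term. Genes that depended on region numbered 5 with no filter and 0 to 48 with 1 library left out, the highest without cortex D replicate 1. After quantile normalization the cortex had 2 calls, and the number series difference in cortex A was -0.13. Of 107 named genes without a call, 28 took the other sign under some setting. The causes were not tested. No paired analysis was possible because the labels give no replicate numbers. The intervals deposited with values near 10 FPKM span about 11.99% to 13.7% to each side in C and 11.9% to 13.6% in D, which limits low genes most.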
